A study of Mus musculus with 8 samples.

Results

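Interferon-inducible GTPases of the immunity-related (IRG) and guanylate-binding (GBP) families were followed by gene symbol through stem and progenitor cells of mouse bone marrow. The 10 genes were chosen by name, as Irgm1, Irgm2, Igtp, Iigp1, Ifi47, Gbp2, Gbp3, Gbp7, Gbp4 and Gbp8, from 53700 genes in the count table. All 10 were among the 12132 genes that passed the filter on low counts, Gbp4 and Gbp8 only through their counts in stem cells. Each of 8 libraries held polyadenylated RNA of 1 sorted population, a haematopoietic stem cell gate (HSC, CD48- CD150+) or a multipotent progenitor gate (MPP, CD48+ CD150-), both within LSK cells (lineage-negative, Sca-1+, Kit+). The donor marrow was labelled DKO (both defects), IFNAR (IFNAR1-deficient), N5 (Nfat5 fl/fl Vav-Cre) or WT (Nfat5 +/+ Vav-Cre), giving 1 library for each cell type and genotype. Vav-Cre acts in blood-forming cells. In every group the donor cells carried CD45.2 and had spent 13 weeks in irradiated wild-type CD45.1 recipients, whose own cells keep Nfat5 and the interferon receptor, and each library pooled cells of 5 mice. No group was replicated, so each factor was tested over libraries matched on the other factors, and p-values measure the spread between these libraries only. The comparisons ask how these GTPase genes differ between HSC and MPP, and between libraries labelled deficient or sufficient for Ifnar1, which encodes a subunit of the receptor for type I interferons, or for Nfat5, which encodes a transcription factor that answers osmotic stress.

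Both families are known in mice for cell-autonomous defence: their transcripts are induced by interferons, most strongly by interferon gamma, through promoter elements named GAS and ISRE, to which transcription factors activated by interferon receptors bind. The IRG proteins divide into regulators (Irgm1, Irgm2 and Igtp, also called Irgm3), which sit on host membranes and hold the effectors inactive there, and effectors such as Iigp1 (Irga6) and Ifi47 (Irgd), which load onto vacuoles that hold parasites and break them. GBP proteins assemble as coats on such vacuoles and on cytosolic bacteria and promote inflammasome activation. Mice that lack Irgm1 have been described to have defective HSC self-renewal under inflammatory stress.

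Promoter windows from RefSeq (GRCm38.p6, 250 bases before to 50 bases after the annotated start) were at hand for 7 of the 10 genes; Gbp4, Gbp8 and Iigp1 had none in the table. Starts are those of RefSeq, and for Gbp7 and Irgm2 the 30 bases after the start were not found in the GENCODE transcripts of the gene, so distances for these genes rest on RefSeq alone. The ISRE core was searched as GAAA, any 2 bases and GAAA again, with its reverse complement (TTTC, any 2 bases, TTTC). The GAS core was searched as TTC, any 3 bases and GAA, which is its own reverse complement. An ISRE core stood in 6 of the 7, in all but Ifi47, and in 3.44% of 32851 promoter windows of the same length. A GAS core stood in Gbp7, Igtp and Irgm2, and in 8.3% of all windows. The 120 bases before the start of the 6 promoters with an ISRE core show where these letters lie, with ISRE and GAS cores in capitals and the strand that of the gene. They cover chr11:48871421-48871540 (minus strand), chr11:58214857-58214976, chr11:58199436-58199555, chr3:142620543-142620662, chr3:142559924-142560043 and chr3:142530216-142530335 (plus strand):
Irgm1: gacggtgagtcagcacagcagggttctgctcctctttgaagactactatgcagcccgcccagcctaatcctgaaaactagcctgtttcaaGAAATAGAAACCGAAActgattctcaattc
Irgm2: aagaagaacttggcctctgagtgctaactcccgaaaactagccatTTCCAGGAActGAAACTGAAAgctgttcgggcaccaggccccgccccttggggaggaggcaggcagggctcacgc
Igtp: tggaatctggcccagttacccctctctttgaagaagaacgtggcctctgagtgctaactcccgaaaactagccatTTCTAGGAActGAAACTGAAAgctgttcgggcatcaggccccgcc
Gbp2: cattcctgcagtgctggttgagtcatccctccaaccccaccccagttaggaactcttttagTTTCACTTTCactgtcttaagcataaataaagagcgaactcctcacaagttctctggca
Gbp3: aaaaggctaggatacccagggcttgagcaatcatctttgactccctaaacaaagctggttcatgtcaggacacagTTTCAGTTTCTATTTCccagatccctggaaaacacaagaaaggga
Gbp7: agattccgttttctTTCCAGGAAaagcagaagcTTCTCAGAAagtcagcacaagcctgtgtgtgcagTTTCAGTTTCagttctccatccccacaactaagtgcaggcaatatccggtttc

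In Irgm1 the capitals are 2 overlapping ISRE cores that begin 30 and 24 bases before the start, and Gbp3 likewise has a pair that begins 45 and 39 bases before it. Gbp2 has 1 ISRE core beginning 59 bases before the start. Gbp7 has 1 beginning 53 bases before the start, with GAS cores beginning 106 and 87 bases before it. Igtp and Irgm2, neighbours on chromosome 11, each have a GAS core that starts 11 bases before the ISRE core. Their windows, shifted by 30 bases, had the same letter at 184 of 270 positions (68.1%), with a longest identical run of 61 bases. A match is a description of letters and not a measured binding site, and a second, nearby Gbp3 window had no ISRE or GAS core.

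**Figure D1:**
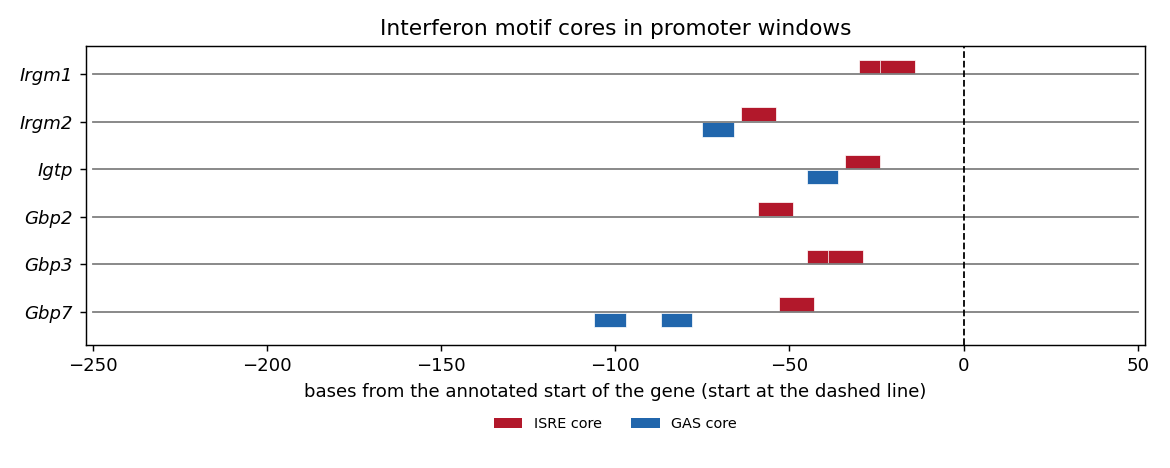
Position of ISRE and GAS cores in the promoter windows of 6 genes. The horizontal axis is the distance in bases from the start annotated in RefSeq (dashed line; for Gbp7 and Irgm2 the 30 bases after it were not found in GENCODE transcripts), grey lines are the windows, red boxes above a line are ISRE cores and blue boxes below it are GAS cores. All ISRE cores lie between 64 and 15 bases before the start.

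Totals ran from 28871693 to 47205950 counts per library, and 13510 to 14781 genes had a count. The smallest count above 0 among these GTPase genes was 315 (Iigp1, the MPP library labelled DKO), with a 95% exact Poisson interval of 7.96 to 9.96 CPM (counts scaled to a common library size with TMM factors), which covers counting error only. Totals moved with the Ifnar1 label, from 35167470 to 47205950 under the deficient labels against 28871693 to 34836941 under the sufficient labels. Thinning all libraries to the smallest total left the Ifnar1-label difference of Iigp1 at -1.45 and that of Irgm1 at -0.79 (log2). Levels were already scaled to library size and no count above 0 was under 315, so thinning could move these values little. What else differs between libraries along with their totals was not tested. The targeted transcripts did not follow the labels. Ifnar1 had 35.1, 113, 126 and 122 CPM in HSC (DKO, IFNAR, N5, WT) and 125, 43.8, 87.9 and 37.2 CPM in MPP (DKO, IFNAR, N5, WT). Nfat5 had 35.5, 3.12, 22.7 and 33.2 CPM in HSC and 11.5, 0.193, 7.69 and 5.59 CPM in MPP, in the same order. The labels do not name the exons that the alleles remove, and every direction by genotype below rests on the labels. The cell type labels did follow their markers: 6 of 6 HSC markers were higher in HSC and 4 of 4 MPP markers lower, of which Dntt and Cd34 passed the test (2 of 12132 genes, 0.0165%, edgeR adjusted p under 0.05).

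HSC held more transcripts of these GTPases than MPP. The 10 genes together averaged 1475 ± 355 CPM in HSC and 739.6 ± 124 CPM in MPP (SD, n = 4 libraries each), and ranged from 1024 to 1775 CPM in HSC and from 564 to 849.9 CPM in MPP. In bulk RNA, more cells of a type and more RNA per cell cannot be told apart. All 10 genes were higher in HSC than in MPP in the pairs labelled DKO, N5 and WT, and 8 of 10 in the pair labelled IFNAR. Of all genes, 48.5%, 48.6%, 46.9% and 47.4% were higher in HSC in these pairs, in that order. Gbp4 and Gbp8 passed the filter only through HSC and so had to be higher in every pair. None of the 10 passed edgeR's quasi-likelihood test after Benjamini-Hochberg adjustment; 8 of 10 had an unadjusted p under 0.05, against 10.1% of all genes (4.45% with a higher level in HSC). Among these were Gbp4 and Gbp8, which passed the filter only through HSC and so had to be higher there; of the 8 genes with counts in both cell types, 6 had an unadjusted p under 0.05. DESeq2 called 8 of the 10 (Gbp4 and Gbp8 among them), against 15.5% of all genes. Limma-voom (1.29% of all genes) and edgeR without the genotype block (1.71%) called Gbp4 and Gbp8 alone among the 10.

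**Figure D2:**
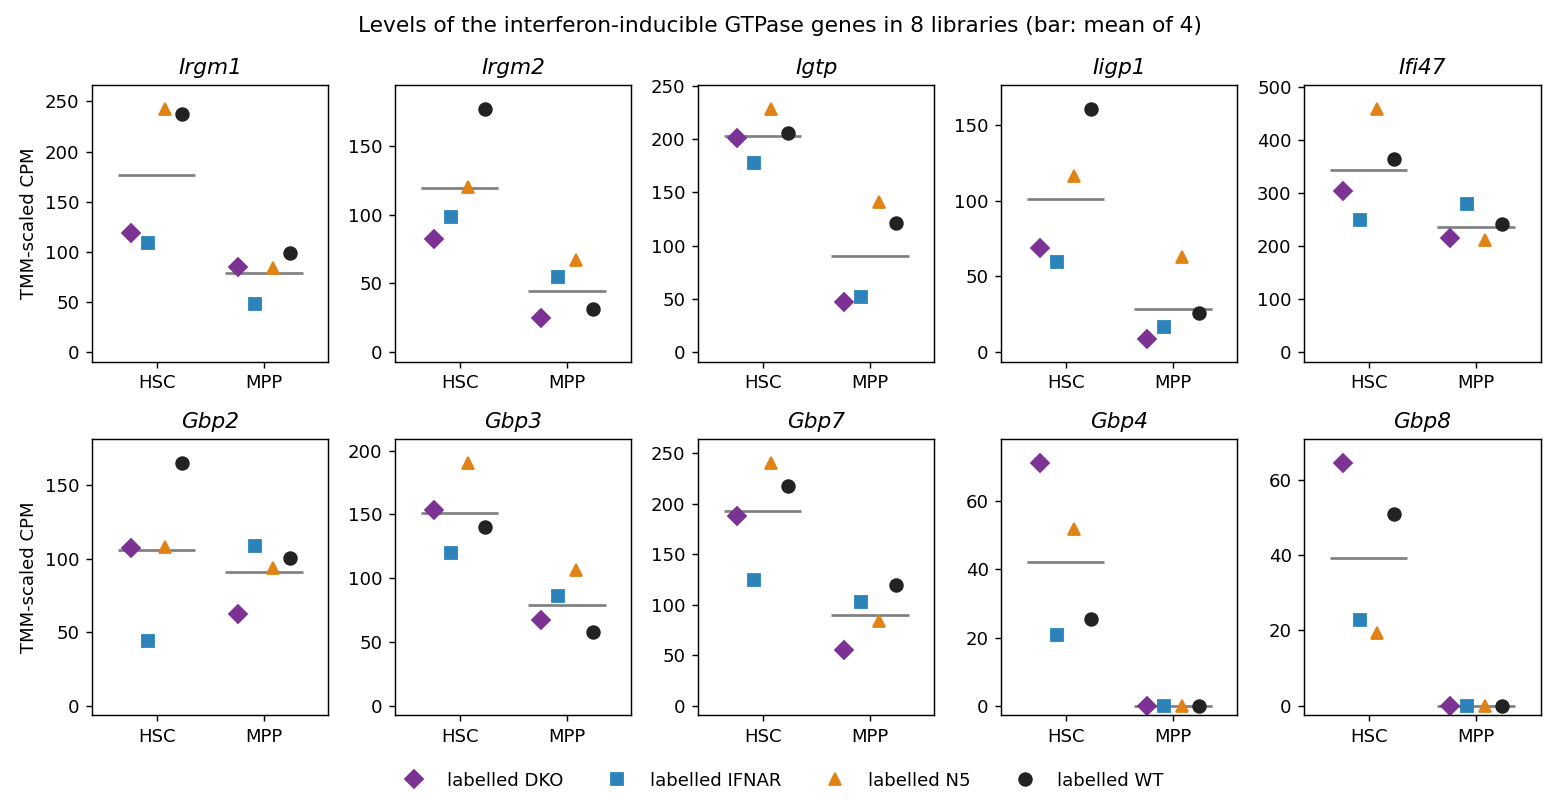
Level of each GTPase gene in the 8 libraries, in TMM-scaled CPM, with HSC left of MPP and each library marked by its genotype label; the bar is the mean of 4 libraries. Vertical scales differ between genes and start near 0. Gbp4 and Gbp8 are at 0 in all 4 MPP libraries, and the HSC libraries labelled DKO and IFNAR lie below those labelled N5 and WT for Irgm1.

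Among the regulators, Irgm1 had 119, 109, 242 and 237 CPM in HSC (DKO, IFNAR, N5, WT) and 84.8, 47.5, 83.5 and 99.2 CPM in MPP (DKO, IFNAR, N5, WT). All 4 HSC libraries lay above all 4 MPP libraries, and the HSC libraries split into a high pair, N5 and WT, and a low pair, DKO and IFNAR. HSC minus MPP was 1.12 ± 0.23 on the log2 scale (SE), with an unadjusted p of 0.00401 and an edgeR adjusted p of 0.251. By Ifnar1 label the averages were 90.1 ± 31.9 CPM in deficient and 166 ± 86.0 CPM in sufficient libraries (SD, n = 4 each), a fitted log2 difference of -0.79 ± 0.24 (SE; edgeR unadjusted p = 0.0167, adjusted p = 1). The level was lower under the deficient label in 3 of 4 matched pairs. Here and below, the pair of DKO over N5 is given before that of IFNAR over WT: the log2 ratios were -1.02 and -1.12 in HSC, and 0.02 and -1.06 in MPP.

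Irgm2 had 82.2, 98.2, 120.3 and 177 CPM in HSC (DKO, IFNAR, N5, WT) and 24.9, 54.6, 67.1 and 31.7 CPM in MPP (DKO, IFNAR, N5, WT). The cell types did not overlap, and the HSC library labelled WT was the highest. The difference of HSC minus MPP was 1.47 ± 0.38 (log2, SE), with an edgeR adjusted p of 0.324. Its difference by Ifnar1 label was -0.56 ± 0.38 (log2, SE; edgeR adjusted p = 1), and the MPP pair of IFNAR and WT went the other way, at 0.79.

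Igtp had 201, 177, 228 and 206 CPM in HSC (DKO, IFNAR, N5, WT) and 47.3, 51.5, 141 and 121 CPM in MPP (DKO, IFNAR, N5, WT). Its HSC level was the steadiest of the 10 genes, with an SD of 20.9 on a mean of 203 CPM, while the MPP libraries split into 2 low ones labelled deficient and 2 high ones labelled sufficient. HSC minus MPP was 1.33 ± 0.31 (log2, SE; edgeR adjusted p = 0.293). The difference by Ifnar1 label was -0.80 ± 0.28 (log2, SE; edgeR unadjusted p = 0.0291, adjusted p = 1), with lower values under the deficient label in 4 of 4 pairs. The log2 ratios were -0.18 and -0.22 in HSC and -1.58 and -1.23 in MPP. The test of that difference between cell types gave 1.20 ± 0.30 (log2, HSC minus MPP, SE), with an unadjusted p of 0.00941 and an edgeR adjusted p of 0.81; 4.82% of all genes had an unadjusted p under 0.05 there, and Igtp alone among the 10 did so in edgeR. DESeq2 called this interaction for Igtp, against 5% of all genes.

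Among the effectors, Iigp1 had 68.7, 59.6, 116 and 161 CPM in HSC (DKO, IFNAR, N5, WT) and 8.92, 16.9, 63.0 and 26.0 CPM in MPP (DKO, IFNAR, N5, WT). The cell types overlapped at 1 point, since the MPP library labelled N5 exceeded the HSC library labelled IFNAR, but within each genotype HSC was higher. HSC minus MPP was 2.08 ± 0.46 (log2, SE; unadjusted p = 0.00558, edgeR adjusted p = 0.275), the largest among the 8 genes with counts in both cell types. Libraries labelled deficient averaged 38.5 ± 29.98 CPM and those labelled sufficient 91.5 ± 59.2 CPM (SD, n = 4 each). That difference was -1.44 ± 0.43 (log2, SE; edgeR unadjusted p = 0.0148, adjusted p = 1), again the largest of the 8 in size, and was lower in 4 of 4 pairs. The HSC pairs gave -0.76 and -1.43, and the MPP pairs -2.81 and -0.62. DESeq2 gave an adjusted p of 0.0366 (1.92% of all genes called), the only call of the 10 genes for the Ifnar1 label by any tool; over 20 alternatives the adjusted p ran from 0.0366 to 1.

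Ifi47, the gene with the highest level per kilobase (given below), had 304, 249, 458 and 363 CPM in HSC (DKO, IFNAR, N5, WT) and 214, 279.6, 211 and 242 CPM in MPP (DKO, IFNAR, N5, WT). The HSC library labelled IFNAR lay below the MPP library of the same label, and the cell types overlapped there. Between HSC and MPP the difference was 0.51 ± 0.23 (log2, SE; edgeR unadjusted p = 0.0732, adjusted p = 0.55). By Ifnar1 label both HSC pairs were lower, at -0.59 and -0.54, and both MPP pairs slightly higher, at 0.03 and 0.21; the interaction had an unadjusted p of 0.0962 and an edgeR adjusted p of 0.998.

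Of the GBP genes on chromosome 3, Gbp2 overlapped between the cell types, while Gbp3 and Gbp7 did not. Gbp2, a prenylated GBP that anchors to membranes, had 107.5, 44.0, 108 and 165 CPM in HSC (DKO, IFNAR, N5, WT) and 62.0, 108, 93.6 and 100.3 CPM in MPP (DKO, IFNAR, N5, WT). The HSC library labelled IFNAR was the lowest of all 8, and the ranges overlapped. HSC minus MPP was 0.12 ± 0.42 (log2, SE; edgeR unadjusted p = 0.778, adjusted p = 0.977), and the sign turned without the HSC library labelled DKO or WT or the MPP library labelled DKO or WT, with -0.11, -0.09, -0.12 and -0.09 in that order. Without the HSC library labelled IFNAR it was 0.58.

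Gbp3 had 154, 119, 190.4 and 140.3 CPM in HSC (DKO, IFNAR, N5, WT) and 66.8, 85.6, 107 and 57.9 CPM in MPP (DKO, IFNAR, N5, WT). The cell types did not overlap, and the library labelled N5 was the highest in both. The HSC minus MPP difference was 0.95 ± 0.22 (log2, SE; unadjusted p = 0.00626, edgeR adjusted p = 0.279). Gbp7 had 188, 124, 240.5 and 218 CPM in HSC (DKO, IFNAR, N5, WT) and 55.0, 103, 84.0 and 119 CPM in MPP (DKO, IFNAR, N5, WT). It too had no overlap, with 1.11 ± 0.30 for HSC minus MPP (log2, SE; edgeR adjusted p = 0.334). For the Ifnar1 label, Gbp7 was lower in 4 of 4 pairs (-0.36 and -0.81 in HSC, -0.61 and -0.22 in MPP), with a fitted difference of -0.46 ± 0.27, while Gbp2 (-0.50 ± 0.39) and Gbp3 (-0.16 ± 0.24) were lower in 3 of 4 (log2, SE; edgeR adjusted p = 1 for each).

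The chromosome 5 genes Gbp4 and Gbp8 were detected in HSC only at this depth. Gbp4 had 71.3, 20.7, 51.7 and 25.4 CPM in HSC (DKO, IFNAR, N5, WT) and Gbp8 had 64.4, 22.6, 19.3 and 50.8 CPM in HSC, in the same order. Both had 0 counts in all 4 MPP libraries, where 3 counts, the limit that a count of 0 allows, correspond to 0.0825 to 0.105 CPM. Against the mean of these floors, Gbp4 was at least 454-fold and Gbp8 at least 422-fold higher in HSC, bounds that cover counting error only. The edgeR adjusted p was 0.328 for Gbp4 and 0.338 for Gbp8. By Ifnar1 label, each was lower in HSC labelled IFNAR than in HSC labelled WT (-0.29 for Gbp4, -1.17 for Gbp8) and higher in HSC labelled DKO than in HSC labelled N5 (0.46 and 1.74, log2 ratios). The fitted differences were 0.09 ± 1.27 for Gbp4 and 0.24 ± 1.36 for Gbp8 (log2, SE; edgeR adjusted p = 1 for both) and changed sign without the HSC library labelled DKO (-0.33 and -0.71) or N5 (-0.04 and -0.76).

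Counted over the 10 genes, 7 had all 4 HSC libraries above all 4 MPP libraries, against 4.73% of the 12132 genes tested, and 8 were higher in HSC in every pair, against 9.81%. None had all 4 HSC libraries below all 4 MPP libraries, against 5.65%. Gbp4 and Gbp8 passed the filter only through HSC and so had to be among these; of the 8 genes with counts in both cell types, 5 did not overlap (Irgm1, Irgm2, Igtp, Gbp3 and Gbp7). The median log2 difference of the 8 was 1.12, against -0.10 over all genes tested.

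**Figure D3:**
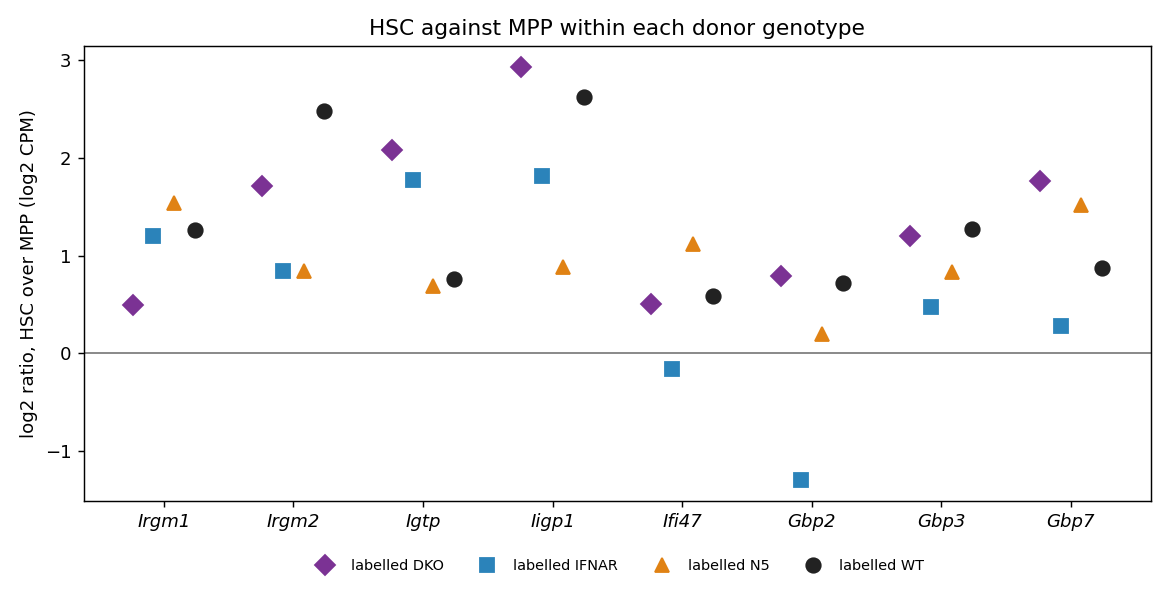
Log2 ratio of HSC over MPP within each genotype label for the 8 genes with counts in both cell types; each point compares 2 single libraries, and the line marks equal levels. All points lie above the line except the IFNAR-labelled pair of Gbp2 (-1.299) and of Ifi47 (-0.17).

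Markers of other blood cells moved between the gates as well. The 4 megakaryocyte markers (Pf4, Gp1ba, Itga2b, Gp9) were higher in HSC, with a summed level of 245 to 462 CPM in HSC against 45.6 to 160.0 CPM in MPP, and none passed the test. Their part in the GTPase difference was not tested. Of 8 monocyte and macrophage markers, 5 were at 0 in all 4 HSC libraries (Ly86, Ccr2, F13a1, Adgre1 and Mrc1), and Mrc1 was at 0 in MPP as well. The summed level of 655 to 1107 CPM in HSC against 519 to 1019 CPM in MPP overlapped. That sum was mostly Lyz2, at 655 to 1060 CPM in HSC and 423.5 to 728 CPM in MPP. Of the 6 markers tested, 1 (Lyz2) was higher in HSC and 5 were lower, with none past the test. The T and NK cell genes Cd3e, Cd3d and Ifng, the last of which encodes interferon gamma, had 0 counts in all 8 libraries, and the summed level of that list was 34.0 to 67.0 CPM in HSC against 301 to 371 CPM in MPP, mostly Nkg7 (34.0 to 66.2 CPM in HSC, 290.5 to 371 CPM in MPP). B cell markers summed to 28.0 to 103 CPM in HSC against 175 to 597 CPM in MPP, and dendritic cell markers to 12.6 to 49.2 CPM against 557 to 732 CPM. In MPP the latter was mostly Flt3, which is also among the MPP markers counted above. The other dendritic cell markers (Siglech, Cd209a and Itgax) had at most 24.55 CPM in any library. Neutrophil markers summed to 472 to 594 CPM in HSC against 127 to 666 CPM in MPP, erythroid markers to 125 to 470.0 CPM against 92.0 to 186 CPM, and endothelial markers to 108 to 294 CPM against 126 to 238 CPM, and these ranges overlapped.

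By Ifnar1 label the 10 genes summed to 924 ± 347 CPM in deficient and 1291 ± 541 CPM in sufficient libraries (SD, n = 4 each). With HSC and MPP pooled in this way the ranges overlapped widely, but within each cell type they did not. The sums were 1360, 1024, 1775 and 1743 CPM in HSC (DKO, IFNAR, N5, WT). In MPP they were 564, 747, 849.9 and 798 CPM, in the same order. All 8 genes with counts in both cell types had a negative fitted difference, with a median of -0.53 (log2) against -0.0054 over all genes tested. No gene of the 12132 passed edgeR's test for this label (0%); 398 genes (3.28%) had an unadjusted p under 0.05, among them 3 of the 10: Iigp1, Irgm1 and Igtp. The bias-adjusted edgeR method and limma-voom each called 1 gene in all and none of the 10, and DESeq2 called 233 genes, among them Iigp1. Igtp, Iigp1 and Gbp7 were lower under the deficient label in every pair (3 of 10, against 6.16% of all genes), and none was higher in every pair (5.9%). Without the MPP library labelled IFNAR or the one labelled WT, 6 of 10 were lower in each of the 3 pairs left. The share of all genes for those 3 pairs was 12.1%. In the pair so dropped 4 of the 8 genes were higher under the deficient label (48.7% of all genes), so the larger count follows from its removal. These 2 removals were not planned. The other 8 alternatives of the count over every pair, among them each other library left out, stayed near it. No gene of the 10 had all 4 deficient below all 4 sufficient libraries, against 1.37% of all genes.

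Within HSC alone, both libraries labelled deficient lay below both labelled sufficient for 7 of the 10 genes (Irgm1, Irgm2, Igtp, Iigp1, Ifi47, Gbp2 and Gbp7), against 16.6% of all genes tested. Within MPP this held for 2 of the 10 (Igtp and Iigp1), against 17.1%. In the single pairs, 10 of 10 were lower in HSC labelled IFNAR than in HSC labelled WT (median -0.83, log2), against 48.3% of all genes. In HSC labelled DKO, 8 of 10 were lower than in HSC labelled N5 (median -0.33), against 49% of all genes. In MPP labelled DKO against N5, 6 of the 8 detected genes were lower, against 49% of all genes. Ly6a, which encodes Sca-1 of the sorting gate and is itself known to be interferon-inducible, moved the same way: it had 120.3, 137, 228 and 304 CPM in HSC (DKO, IFNAR, N5, WT) and 54.5, 45.2, 150.1 and 93.1 CPM in MPP (DKO, IFNAR, N5, WT), a difference of -1.16 ± 0.22 (log2, SE; edgeR adjusted p = 1). The 5 endothelial markers summed to 194 to 294 CPM under deficient against 108 to 178 CPM under sufficient labels. The highest sum held 194 CPM of Tek in HSC labelled IFNAR. Fitted differences of the 3 markers tested had both signs (Pecam1 0.81 ± 0.48, Emcn 5.19 ± 4.19, Tek -2.37 ± 3.43, log2, SE), with none past the test. Their mean levels were each higher under deficient labels, at 125.8 against 78.4, 37.3 against 6.94 and 65.7 against 35.7 CPM in that order. Kdr, which did not pass the filter, went the other way, with 5.91 CPM under deficient against 12.99 CPM under sufficient labels. Tek had 0 CPM in MPP labelled DKO, IFNAR and N5, and Cdh5 was at 0 in all 8 libraries. The part of the Sca-1 gate or of endothelial RNA in the GTPase values was not tested.

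**Figure D4:**
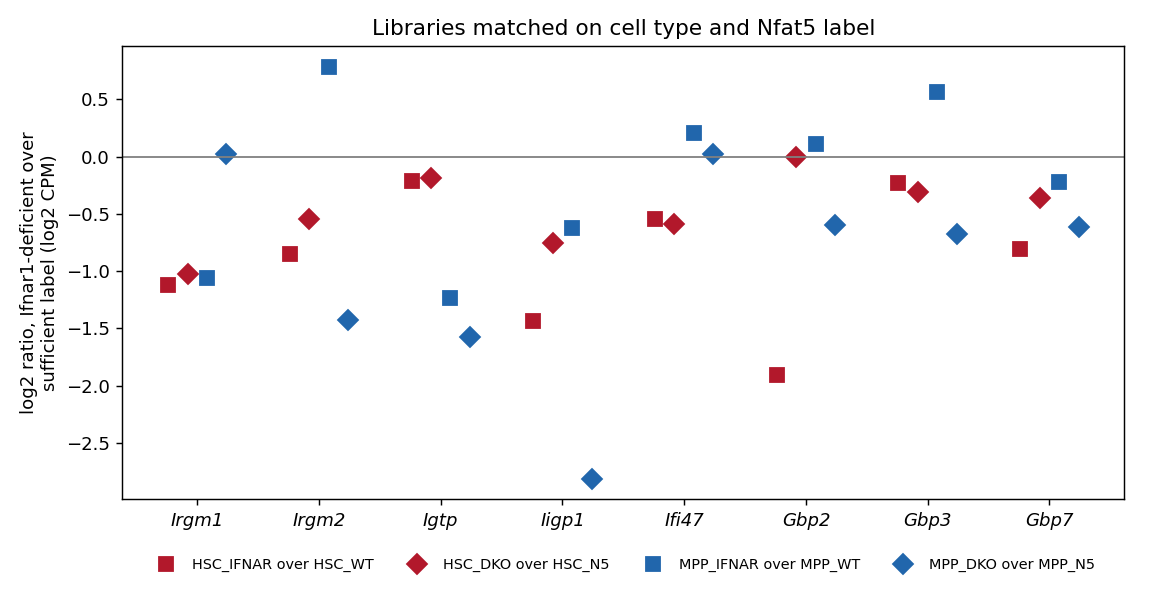
Log2 ratio of Ifnar1-deficient over Ifnar1-sufficient labels in pairs matched on cell type and Nfat5 label, for the 8 genes with counts in both cell types; red marks HSC pairs, blue MPP pairs, squares IFNAR over WT and diamonds DKO over N5. All HSC points lie at or below the line, the lowest being Gbp2 at -1.91, while MPP points lie on both sides, from 0.79 for Irgm2 to -2.81 for Iigp1.

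By Nfat5 label no gene of the 12132 passed edgeR's test (0%), 338 had an unadjusted p under 0.05, none of them among the 10, and DESeq2 called 166 genes and none of the 10. The fitted log2 differences ran from -0.26 ± 0.38 for Irgm2 to 0.32 ± 0.24 for Gbp3 among the 8 genes with counts in both cell types (SE; edgeR adjusted p = 1). None of the 10 moved one way in all 4 pairs, against 5.79% of all genes higher and 5.35% lower. In HSC, 9 of 10 were higher in the library labelled DKO than in that labelled IFNAR (median 0.33, log2), against 49.9% of all genes. Gbp2 had 107.5 CPM in DKO against 44.0 CPM in IFNAR there. In MPP, 7 of the 8 detected genes were lower in DKO than in IFNAR (median over the 10 of -0.37), against 48.9% of all genes. N5 against WT gave 6 higher and 4 lower in HSC (49.9% and 47.6% of all genes). Among the 8 detected in MPP it gave 4 of each (48.6% higher and 50.2% lower over all genes). The interaction of both labels passed the edgeR test for no gene (0%); 404 genes but none of the 10 had an unadjusted p under 0.05, and DESeq2 called 393 genes and none of the 10.

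Per kilobase of the longest annotated transcript, Ifi47 had the highest mean level in HSC, at 194 ± 50.5 CPM per kilobase, ahead of Igtp at 100.3 ± 10.3 (SD, n = 4). Irgm1 (78.3 ± 32.2), Gbp3 (56.3 ± 11.2), Gbp2 (42.2 ± 19.7), Gbp7 (34.3 ± 8.99), Irgm2 (33.8 ± 11.7), Iigp1 (32.5 ± 15.0), Gbp8 (16.0 ± 8.92) and Gbp4 (9.31 ± 5.21) followed in HSC, and from Igtp down the mean ± SD ranges of neighbours in this order overlapped, while those of Ifi47 and Igtp did not. In MPP Ifi47 again led, at 133.5 ± 17.9 CPM per kilobase, followed by Igtp (44.7 ± 23.7), Gbp2 (36.2 ± 8.08), Irgm1 (34.9 ± 9.74), Gbp3 (29.5 ± 8.06), Gbp7 (16.1 ± 4.91), Irgm2 (12.6 ± 5.58) and Iigp1 (9.20 ± 7.67). The ranges of neighbours in MPP overlapped except those of Ifi47 and Igtp and of Gbp3 and Gbp7. The transcript lengths come from an annotation of an earlier build, and reads that paralogs share may be divided between them.

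Other genes of the same machinery gave the following counts. Of 20 further interferon-induced GTPase genes, 11 were tested: 9 were higher in HSC and 2 lower (median log2 difference 1.27), and 3 were higher and 8 lower under the Ifnar1-deficient label (median -0.48), with no edgeR call in either. Among genes of this list with at least 10 CPM on average, the largest Ifnar1-label differences were those of Gm4951 (-5.21), Gbp6 (-1.93), Gvin3 (1.38) and Gvin2 (-1.13). Of 15 genes from interferon receptors to their transcription factors, 9 were higher and 6 lower in HSC (median 0.06), and the same split held under the Ifnar1-deficient label (median 0.08), with no call. Usp18, an inhibitor of type I receptor signalling, had the largest of these differences by Ifnar1 label (-2.74 ± 1.295), and Irf9 (-1.72 ± 0.37) and Irf2 (-0.53 ± 0.36) were also lower there (log2, SE; edgeR adjusted p = 1 for each).

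Of 11 inflammasome and caspase genes 7 were tested. In HSC 3 were higher and 4 lower, and under the deficient label 5 were higher and 2 lower. The named ones were Aim2 (-2.95 ± 5.99), Il18 (1.31 ± 1.83), Gsdmd (0.46 ± 0.23) and Pycard (0.41 ± 0.29, log2 by Ifnar1 label, SE). The mean level of Aim2 went the other way, with 18.1 CPM under deficient and 13.8 CPM under sufficient labels. It had 0 CPM in HSC labelled IFNAR and 0.0844 CPM in HSC labelled DKO. Of 15 genes of Atg8 conjugation and ubiquitin adaptors, which guide IRG and GBP proteins to vacuoles, 6 were higher and 9 lower in HSC. Under the deficient label 8 were higher and 7 lower. Those named were Traf6 (1.20 ± 1.71), Atg16l1 (0.96 ± 1.57), Atg7 (-0.39 ± 0.50) and Gabarapl1 (-0.33 ± 0.22, log2, SE). Traf6 and Atg16l1 had 0 CPM in HSC labelled WT. Of 6 genes of CaaX protein prenylation, 2 were higher and 4 lower in HSC and 5 were higher and 1 lower under the deficient label. Those named were Icmt (0.70 ± 0.61), Pggt1b (0.55 ± 1.49), Zmpste24 (-0.42 ± 0.36) and Rce1 (0.35 ± 0.57, log2, SE). None of these passed edgeR's test.

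Among the 5 genes whose pattern over the 8 libraries lay closest to the mean pattern of the 10, by root-mean-square distance of centred log2 CPM among 9268 genes, were Col16a1 (0.22), Selenom (0.30), Cavin1 (0.39) and Cavin3 (0.43). Col16a1, a collagen chain, had 137, 90.2, 127 and 165 CPM in HSC (DKO, IFNAR, N5, WT) and 21.3, 24.2, 29.6 and 21.6 CPM in MPP (DKO, IFNAR, N5, WT). The mean pattern was drawn by Gbp4 and Gbp8, which are at 0 in MPP and themselves lay 3.36 and 3.31 from it, while Iigp1 lay nearest at 0.68 and Gbp2 at 1.35.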

How the data were processed

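Polyadenylated RNA was turned into libraries with Smart-Seq2, per the labels' protocols, a PCR method for whole transcripts with no molecular identifiers and no strand information. Per the submitters' processing notes, STAR 2.7.8a, RSEM 1.3.0 and GRCm39 were used. Gene counts in whole numbers, not normalized, were deposited by the authors as 1 table; how estimated counts became whole numbers is not given in the sources used here. Paralogous GBP and IRG genes can share reads, and overlapping or antisense genes cannot be told apart without strand.

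Counts were tested with edgeR 4.0.16 (R 4.3.3; glmQLFit with legacy = TRUE, glmQLFTest), TMM scaling, filterByExpr by cell type (12132 genes) and Benjamini-Hochberg adjustment over them at 0.05. HSC minus MPP was fitted with a genotype block, leaving 3 residual degrees of freedom, because each cell type had 1 library per genotype; the Ifnar1 and Nfat5 labels were fitted with cell type and both labels (4 residual degrees of freedom), and the interactions had 3. Single pairs are given untested, as log2 CPM ratios (prior count 2). The scripts were tested on simulated data. DESeq2 1.42.0, limma-voom (limma 3.58.1), RLE scaling, other filters, the bias-adjusted edgeR method, fits without the block or on subsets of libraries, leaving out each library, thinning (chosen after the totals were seen) and prior counts of 0.5 and 5 were alternatives.

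All 10 genes were named whatever their values. From each other list, genes called by the test were named, and otherwise up to 4 with the largest absolute difference by Ifnar1 label among those of at least 10 CPM; Ly6a and the Tgtp genes were chosen after their values were seen. Not every gene picked by these rules is reported here. The genes and lists were chosen with earlier results of these data known. Promoter windows are RefSeq's on GRCm38.p6, and lengths and chromosomes come from an earlier build, so no coordinates of the count table's build are given. The count table held 1 column for each of the 8 libraries, and none was left out.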

Additional observations from a re-analysis of the deposited data

How the results depend on the processing

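The count of genes called for HSC minus MPP (2) changed with the tool and the filter: 23 with a filter of 10 CPM in 4 libraries, 107 with bias-adjusted edgeR, 1880 with DESeq2, 156 with limma-voom, 0 with Ifnar1-sufficient or Ifnar1-deficient labels only, and 0 to 0 when any 1 library was left out. Without the replicate block of genotype it was 207. Of the 10 GTPase genes (0 called), DESeq2 called 8 (15.5% of all genes), limma-voom 2 (1.29%) and the fit without the block 2 (1.71%). The 2 were Gbp4 and Gbp8 in both, and DESeq2 called them as well. These genes passed the filter only through HSC and so had to be higher there. Genes called by Ifnar1 label (0) numbered 1 with bias-adjusted edgeR, 233 with DESeq2 (1 of the 10) and 1 with limma-voom. DESeq2 called 166 genes by Nfat5 label, 607 for cell type by Ifnar1 label (1 of the 10, Igtp) and 393 for both labels, each 0 in edgeR. The subset and left-out fits also held fewer libraries, and the cause of these changes was not tested.

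HSC minus MPP kept its direction in all 18 alternatives for 9 of the 10 genes; Gbp2 turned to -0.25 with Ifnar1-deficient labels only and ran from -0.12 to 0.58 as single libraries were left out. By Ifnar1 label, Irgm1, Irgm2, Igtp, Iigp1, Gbp2 and Gbp7 stayed negative in all 20 alternatives. Ifi47 turned to 0.11 in MPP libraries only and Gbp3 to 0.16 with Nfat5-sufficient labels only, where Gbp4 gave -0.24 and Gbp8 -0.99. With single libraries left out, Gbp4 ran from -0.33 to 0.46 and Gbp8 from -0.76 to 1.24. For Gbp4 and Gbp8 in MPP, 0 counts set a limit and not a level.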

Other observations

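Tgtp1 and Tgtp2, which encode T-cell-specific GTPases of the IRG family, are near-identical copies that can share reads, and they lie outside the 10 genes. Tgtp2 had 529, 705, 1041 and 782 CPM in HSC (DKO, IFNAR, N5, WT) and 269.6, 267, 429.5 and 289 CPM in MPP (DKO, IFNAR, N5, WT). All 4 HSC libraries lay above all 4 MPP libraries, and the library labelled N5 was the highest in both. HSC minus MPP was 1.27 ± 0.12 for Tgtp2 (log2, SE; edgeR adjusted p = 0.0709), and 0.84 ± 0.21 for Tgtp1 (edgeR adjusted p = 0.324), whose levels averaged 315 ± 74.2 CPM in HSC and 174 ± 34.5 CPM in MPP (SD, n = 4 each).

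In the RefSeq promoter table, a GAS core that starts 11 bases before an ISRE core, the spacing seen in Igtp and Irgm2 and searched for after it was seen there, stood in 5 of 32851 windows (0.0152%). The other windows belonged to Tgtp1, Tgtp2 and Gm12185, and no level is given here for the last of these. The matches are a description of letters in these windows.

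Of 18 sets of 4 library values examined for a library far from the others in its group, none passed the 95% critical value of Dixon's test.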
